A study of Rattus norvegicus and Mus musculus with 17 samples.

Results

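The nuclear genes for the respiratory chain and the ATP synthase were followed through 2 liver tumour models and 1 model of liver regrowth. The genes were taken by symbol, as the listed rows that begin with Nduf, Uqcr, Sdha, Sdhb, Sdhc, Sdhd, Atp5 or Cox and a digit, leaving out symbols that end in -ps. This gave 103 of 15824 listed rows, with 74 distinct symbols. They were 59 of 4649 genes in a mouse table of liver with tumours, 37 of 9082 in a rat table of Morris hepatoma and 7 of 2093 in a rat table of regenerating liver. Each table holds values read as RPKM (reads scaled to transcript length and library size) for each library and is limited to genes whose deposited p-value, in effect unadjusted, was under 0.05. Genes outside the tables were not analysed here, and most listed genes differ between the groups by the way the tables were made.

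The mouse groups were livers of male C57BL/6 mice given 50 mg/kg of diethylnitrosamine (DEN, a liver carcinogen) at 14 days of age and 2 mg/kg of TCPOBOP, a tumour promoter that activates the receptor CAR, 30 days later. They were taken at 5 months, while still free of tumours (n = 3), or at 8 months, when tumours were present (n = 3), so both mouse groups had received both agents and they also differ in age. The rat groups were male and of the ACI strain. They were untreated control liver (n = 3), Morris hepatoma grown for 2 weeks after MH3924a cells were placed in the liver of rats aged 10 weeks (n = 4), and regenerating liver 24 hours after partial hepatectomy in rats of 10 to 12 weeks (n = 4). MH3924a is a single transplantable line, and the hepatoma samples can hold host cells. Whether every library is a different animal is not stated in the labels, so the p-values speak only of the spread between libraries.

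The respiratory chain passes electrons from NADH and succinate to oxygen and pumps protons out of the mitochondrial matrix, and the ATP synthase lets them flow back to make ATP. Complex I (NADH dehydrogenase, Nduf genes), complex II (succinate dehydrogenase, Sdh), complex III (the cytochrome bc1 complex, Uqcr), complex IV (cytochrome c oxidase, Cox) and complex V (ATP synthase, Atp5) are built from many subunits, and separate assembly factors put them together without staying in the finished enzyme. Liver cells are rich in mitochondria, which also supply the urea cycle and fatty acid oxidation. A few core subunits are encoded in mitochondrial DNA, and none of these was listed in the 3 tables. By role, the DEN rows held 49 subunits and 9 assembly factors, the Morris rows 25 and 10, and the regenerating rows 5 and 1. The symbols also took in Atp5sl and Cox4nb, which are named after these families but encode no subunit of complex V or IV. Roles were set by symbol, and both were counted neither as subunits nor as assembly factors. Atp5sl is now called Dmac2 in the rat annotation. Cox4nb is now called Emc8, a subunit of a membrane protein complex of the endoplasmic reticulum. Ndufa4 is now placed in complex IV but was counted here under complex I, by its symbol.

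Some libraries stood apart before any comparison was made. Relative depth, read from the steps of low values, lay between 0.943 and 1.215 of the first mouse library and between 1 and 1.182 of the first rat control, and absolute depth was not known. Among 790 genes of at least 50 RPKM in the Morris table, the spread of log2 differences between rat control libraries 1 and 2 was 0.133 (SD), against 0.921 and 0.952 between either and control library 3. Control library 3 was the lowest control in 30 of 37 members of the Morris table, against 51.8% of all genes listed there. The labelled tissue also varied within the hepatomas. The summed RPKM of 10 listed hepatocyte markers was 117792, 107153 and 100952 in the controls, but 1117, 104, 28093 and 22707 in hepatoma libraries 1 to 4, so hepatocyte RNA was near absent in the first pair and present in the second. In the same libraries 8 listed stellate cell and fibroblast markers summed to between 34.5 and 121 RPKM in controls and to between 2722 and 5419 in hepatomas. In bulk tissue, fewer cells of a type and less RNA per cell cannot be told apart.

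In DEN-treated mice, 50 of 57 tested members fell in livers with tumours and 0 rose, by limma on log2(RPKM + 1) with a Benjamini-Hochberg adjusted p under 0.05. Of all genes tested there, 49.5% were called lower and 17.9% higher, so the members' share of 87.7% lay above the background. On simulated data more of the DEN calls were false than the threshold allows, so the adjusted p-values in this comparison can be too small. The median log2 change was -0.79 over the members and -0.56 over all tested genes. The members were part of this general fall, and with median scaling 3 were called lower and with quantile normalization 1, against 16.7% and 16.0% of all tested genes (24.8% and 24.0% were then higher). Of the 106 annotated mouse protein-coding genes whose symbols fit the same rule, 58 were listed, 56 lower and 2 higher, which is 54.7% against 19.1% of all protein-coding genes (13.5% lower and 5.57% higher). All 59 listed members had groups that did not overlap, as did 100.% of the listed genes to 3 digits, which follows from the selection. The summed RPKM of the 59 members was 12526, 15262 and 13966 before tumours and 7973, 8016 and 7118 with tumours.

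In complex I, 21 of 22 subunits and 4 of 5 assembly factors were called lower. Ndufs7, an iron-sulphur subunit on the path of electrons to ubiquinone, was at 179.9, 206 and 177 RPKM before tumours and 94.2, 85.7 and 83.5 RPKM with tumours. Its log2 change was -1.08 (SE 0.14, limma adjusted p = 0.00222). Ndufb5, an accessory subunit of the membrane arm, went from 83.7 ± 10.1 to 40.9 ± 3.40 RPKM (SD, n = 3 each), a log2 change of -1.01. Ndufa10, another accessory subunit, changed least among those called, from 120.3 ± 5.21 to 85.1 ± 2.29 RPKM (limma adjusted p = 0.0453), and lost its call whichever of the 6 libraries was left out. Ndufb6 was the subunit that did not pass, at 41.9, 57.1 and 64.3 RPKM before and 35.7, 36.8 and 31.5 RPKM with tumours (adjusted p = 0.0638).

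The assembly factors of complex I were listed at far lower levels than the subunits. Ndufaf3, which acts early in building the arm that binds ubiquinone, was at 12.6, 14.8 and 10.5 RPKM before and 5.27, 5.68 and 5.31 RPKM with tumours, so the groups were far apart and the libraries with tumours nearly equal. Its log2 change was -1.07 (SE 0.15, limma adjusted p = 0.00275), and it was the 1 member of the 50 that stayed called lower with both median scaling and quantile normalization. Ndufaf7, a methyltransferase, fell from 5.31 ± 0.674 to 3.36 ± 0.239 RPKM. Ndufaf5, which hydroxylates Ndufs7, had the smallest difference of all members, from 1.53, 1.51 and 1.54 to 1.03, 1.29 and 1.09 RPKM, and did not pass (log2 change -0.24, SE 0.11, adjusted p = 0.35).

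Complexes II and III also fell. Sdhc, a membrane anchor of succinate dehydrogenase and the sole complex II subunit listed, was at 164, 157 and 118 RPKM before tumours and 81.5, 73.9 and 93.4 RPKM with tumours (log2 change -0.80, SE 0.18, adjusted p = 0.0204). Its assembly factors Sdhaf1, needed for the iron-sulphur subunit, and Sdhaf2, needed to attach flavin to Sdha, fell by 0.51 and 0.62 on the log2 scale. In complex III 6 of 7 subunits fell. Uqcr10, a small subunit, was at 452, 497 and 286 RPKM before and 189.9, 170.0 and 179 RPKM with tumours (log2 change -1.15, SE 0.22, adjusted p = 0.0103). Uqcrq, another small subunit, had the highest mean of all members before tumours and fell from 1072 ± 223 to 518 ± 65.1 RPKM. The core subunit Uqcrc1 was tight between libraries, at 189, 203 and 185 before and 109.7, 108 and 116 RPKM with tumours. Uqcrc2, the other core subunit, stood at 67.5% of its earlier mean and did not pass (adjusted p = 0.0577).

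Complex IV held the member with the largest fall on the log2(RPKM + 1) scale, Cox5b, and also the 2 members listed as higher. By group means Cox5b and Ndufaf3 fell about alike, to 43.1% and 42.9%. Cox5b, a subunit that faces the matrix and binds zinc, was at 617, 796 and 622 RPKM before and 296, 320.5 and 261 RPKM with tumours. The log2 change was -1.20 (SE 0.17, limma adjusted p = 0.00284), and the highest library with tumours stood well below the lowest before them. Cox8a and Cox6b1, the common isoforms of their subunits, fell to 51.1% and 51.0% of their earlier means. Cox4i1, the common form of a regulatory subunit, fell less, from 576 ± 115 to 354 ± 23.0 RPKM (adjusted p = 0.0458). Within each library Cox5b made up 136%, 134% and 91.3% of Cox4i1 before tumours and 80.8%, 87.0% and 79.7% with tumours, a pair chosen after the values were seen.

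The alternative isoforms moved the other way at very low levels. Cox4i2, the form of Cox4 found mainly in lung and induced by low oxygen, was at 0.288, 0.241 and 0.261 RPKM before and 0.623, 0.712 and 0.676 RPKM with tumours. Cox6b2, known from testis, was listed at 0.001, which stands for no reads, 0.265 and 0.460 RPKM before and 0.725, 1.10 and 0.758 RPKM with tumours. Both were under the filter of 1 RPKM. With no filter both rose, by 0.40 (SE 0.06, adjusted p = 0.0034) and 0.59 (SE 0.14, adjusted p = 0.028) on the log2(RPKM + 1) scale, which understates changes this low, and 20.3% of all listed genes were then called higher and 48.7% lower. Cox4i2 still made up only 0.0475% of the Cox4i1 level before (mean of 3 libraries) and 0.190% with tumours.

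In the ATP synthase 9 of 12 subunits fell. Atp5g1 and Atp5g3 encode the same mature ring subunit c from separate genes, and the 2 genes can share reads. Atp5g1 was at 255, 332 and 264 RPKM before and 157, 136 and 134 RPKM with tumours (log2 change -0.98, SE 0.16, adjusted p = 0.00583), and Atp5g3 fell by 0.88 on the log2 scale. Atp5b, the catalytic beta subunit, was at 576, 548 and 635 RPKM before and 361, 408 and 330.4 RPKM with tumours (log2 change -0.68, SE 0.15, adjusted p = 0.0229). Atp5c1, Atp5f1 and Atp5o, which belong to the central and outer stalks, were at 68.7%, 67.9% and 67.0% of their earlier means and did not pass (adjusted p = 0.0901, 0.0948 and 0.0542). Atp5sl, which is no subunit, fell from 11.2 ± 1.72 to 7.01 ± 0.754 RPKM.

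**Figure D1:**
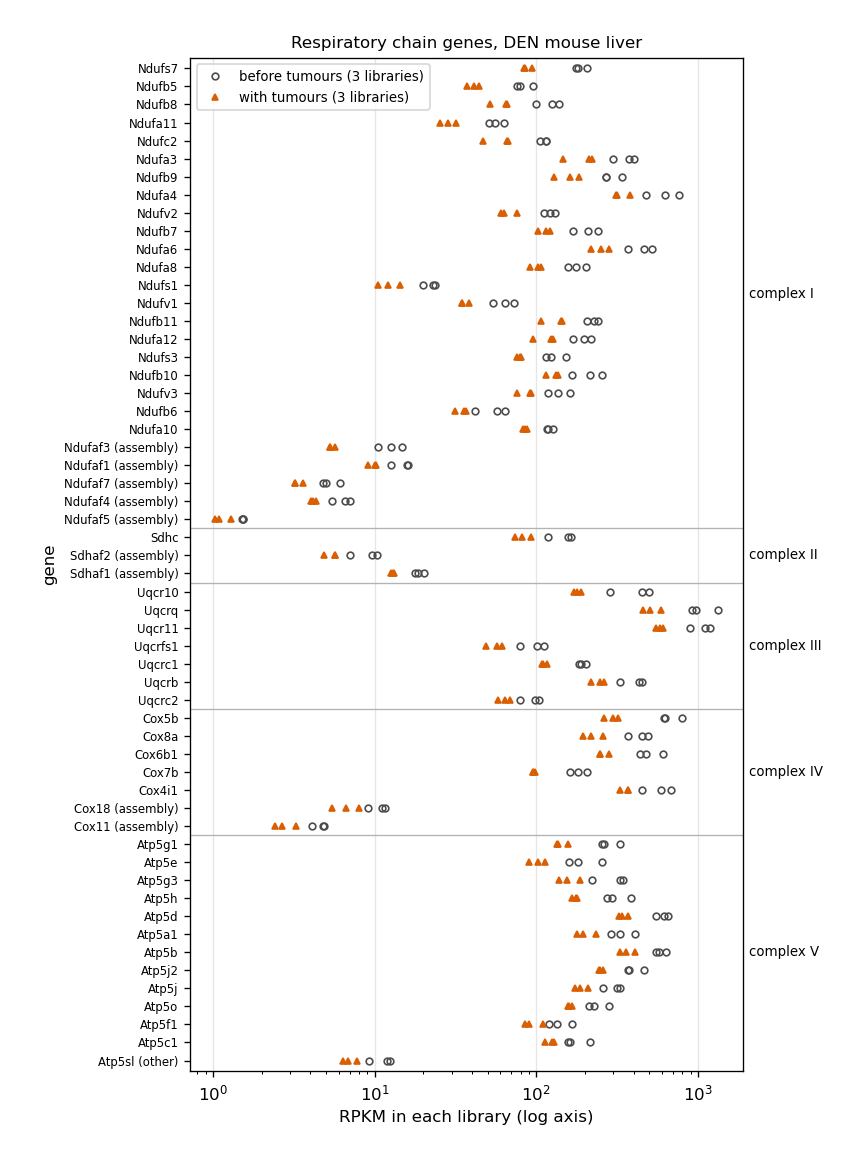
RPKM on a log axis for 56 of the 57 tested members, ordered by complex and role, in 3 libraries before tumours (open circles) and 3 with tumours (triangles). In every row the triangles lie to the left of the circles, as in nearly all genes that this selected table lists as lower, and 50 members were called lower without rescaling, 3 with median scaling and 1 with quantile normalization.

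Genes around the chain were read from lists chosen with earlier results known, and their counts stand beside the 49.5% of all tested genes called lower (16.7% with median scaling, 16.0% with quantile normalization). Of 10 tested genes of the TCA cycle, which feeds the chain with NADH, 8 fell and 0 rose, and 4 fell with either median scaling or quantile normalization. Cs, the citrate synthase often used as a marker of mitochondrial content, was at 95.5, 80.9 and 76.8 RPKM before and 22.9, 32.2 and 33.5 RPKM with tumours (log2 change -1.50, SE 0.18, adjusted p = 0.00152), and Pdhb and Idh3a fell to 33.4% and 31.8% of their earlier means; all 3 calls held with both scalings. Of 6 regulators of mitochondrial biogenesis 5 fell (1 with median scaling, 2 with quantile normalization), among them Esrra, a nuclear receptor that drives chain genes, from 9.61 ± 0.986 to 3.95 ± 0.517 RPKM, called lower with both scalings. Ppargc1b, a coactivator of Esrra, fell further in group means, from 1.87 ± 0.445 to 0.636 ± 0.0931 RPKM. Cyc1, the haem-bearing cytochrome c1 of complex III, which the symbol rule does not take in, fell to 51.0%. Adck3, a kinase-like protein needed to make ubiquinone, fell to 29.1%, and they were 2 of 4 electron carrier genes that fell among 8 tested (1 rose and 1 fell with median scaling, 0 and 0 with quantile normalization, and Cyc1 lost its call with each). Of 9 other assembly factors 7 fell, among them Ecsit, and 0 did so with either scaling. Of 6 protein import genes Timm9 alone fell, and it kept its call with both scalings. Of 3 vacuolar ATPase subunits, which belong to another proton pump, Atp6v0b fell, and it lost its call with both (adjusted p = 0.68 and 1).

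Without rescaling, the ATP synthase inhibitor moved against its enzyme. Atpif1, which blocks the ATP synthase from running backwards, was at 49.6, 71.1 and 54.6 RPKM before and 182, 85.4 and 171 RPKM with tumours (log2 change 1.25, SE 0.29, limma adjusted p = 0.031), and it stayed called higher with median scaling (1.64) and quantile normalization (1.96). It was the 1 of 9 tested genes of supercomplexes, cristae and ATPase control that rose, while 6 fell, among them Higd2a and Apool, and 0 of these fell with either scaling. Within a library, where a factor common to all its genes cancels, Atpif1 made up 8.61%, 13.0% and 8.61% of the Atp5b level before tumours and 50.4%, 20.9% and 51.8% with tumours. The groups did not overlap, which had to be so, since Atpif1 and Atp5b each lay apart between groups in opposite directions. Tumour library 2 was much the lowest of its group. Atp5b was not called with either scaling (log2 change -0.28 with median scaling and 0.023 with quantile normalization).

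Cell markers moved as well. Alb rose from 24699 ± 3706 to 83080.2 ± 3711 RPKM, and the 5 listed hepatocyte markers summed to between 43515 and 55560 RPKM before and to between 125587 and 142011 with tumours. That sum is nearly all Alb and Apoa1, and 2 of the 5 stood lower, Serpina1c at 58.6% of its earlier mean (called lower) and Cps1 at 46.4% (adjusted p = 0.135). Markers of stellate cells and fibroblasts (3 listed) went from between 22.5 and 35.6 to between 62.6 and 65.3 RPKM, and those of macrophages (5 listed) from between 79.2 and 97.9 to between 105 and 150.2. Of these 5, 3 were higher, Cd14 and Lyz2 among them, and 2 lower, the Kupffer cell marker Clec4f at 27.4% of its earlier mean (called lower) and Cd163, under the filter, at 31.3%. Listed T and NK cell RNA (1 marker) went from at most 3.12 to at least 38.5 RPKM, and erythroid RNA (1 marker) from at least 67.8 to at most 15.0. RPKM are shares of the reads, and the part of these shifts in the members' fall was not tested. Leaving out before-tumour library 2 lowered the 50 calls to 15, and leaving out tumour library 3 lowered them to 23. Leaving out before-tumour library 1 or 3 or tumour library 1 gave 31, 32 and 30.

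In the Morris hepatoma members were found on both sides, on a background of general rise. Of 37 tested members 22 rose and 6 fell against control liver, where 85.5% of all tested genes were called higher and 8.73% lower. The share of members called higher, 59.5%, was thus below the background, and the median log2 change was 0.78 against 1.58 over all tested genes. Every assembly factor was called higher (10 of 10, median 1.19), whereas of 25 subunits 10 rose, 6 fell and 9 did not pass (median 0.53); both medians lay under that of all genes, and the difference between roles was not tested. These rises depend on the scale, since median scaling left 0 members called higher and 25 lower (24.6% and 29.0% of all tested genes), and quantile normalization 4 and 15 (30.5% and 22.8%). Of the 10 assembly factors 0 were then higher and 5 lower with median scaling, and 1 and 3 with quantile normalization. Only 36 of 131 annotated rat genes of these symbols were listed (27.5%, 27 of them higher and 9 lower), against 39.0% of protein-coding genes (34.2% higher and 4.74% lower), and the groups did not overlap in 33 of 37 members, against 98.3% of listed genes.

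Complex I split into risers, fallers and unresolved members. Ndufv3, a small subunit of the NADH-binding module, was at 128, 119.6 and 77.7 RPKM in controls and 42.8, 46.6, 47.4 and 49.9 RPKM in hepatomas. All 4 hepatomas lay below all controls, although control library 3 was far under the other controls. The log2 change was -1.17 (SE 0.21, limma adjusted p = 0.00128), or -2.75 relative to the median of all tested genes, and the call held whichever library was left out. Ndufv2, an iron-sulphur subunit of the same module, fell from 162 ± 29.1 (SD, n = 3) to 95.3 ± 9.31 RPKM (n = 4), and its call was lost without control library 1 or 2.

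Ndufb3 and Ndufs6 also fell, by 0.68 and 0.59 on the log2 scale (adjusted p = 0.0315 and 0.0393). Both lost the call when any of 6 of the 7 libraries was left out. The identifier given for Ndufs6 is a pseudogene in the current RefSeq annotation of the rat, so its value is uncertain. Ndufa1, Ndufa10 and Ndufa4 stood at 66.0%, 66.7% and 60.4% of control and did not pass (adjusted p = 0.0605, 0.0504 and 0.0649). Ndufa12, which sits beside the NADH-binding module, rose from 116, 125 and 75.2 to 223, 286, 201 and 182 RPKM (log2 change 1.08, SE 0.25, adjusted p = 0.00593), turning to -0.58 with median scaling. Ndufa5 rose by 0.78. Ndufa9 and Ndufb10 stood 1.44 and 1.45 times above control and did not pass. Within a library Ndufv2 was 155%, 141% and 170.4% of Ndufa12 in controls and 38.9%, 33.2%, 53.9% and 50.4% in hepatomas, a pair chosen after the values were seen. This ratio had to lie apart between groups, since both genes already did so in opposite directions.

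The 4 assembly factors of complex I all rose on the deposited scale. Ndufaf7, the methyltransferase, was at 1.65, 1.83 and 1.69 RPKM in controls and 9.56, 8.89, 6.33 and 6.80 RPKM in hepatomas. The lowest hepatoma was several times the highest control, and the log2 change was 1.69 (SE 0.18, adjusted p = 2.65e-05), 0.11 above the median of all tested genes. Ndufaf3, Ndufaf4 and Ndufaf5 rose 2.61-fold, 2.94-fold and 2.87-fold in group means, each less than the median of all tested genes on the log2 scale and each with the opposite sign with either scaling.

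In complex II the catalytic subunit and its assembly factor moved in opposite directions. Sdha, the flavin-bearing catalytic subunit, was at 84.9, 85.6 and 54.5 RPKM in controls and 39.1, 40.5, 48.1 and 39.3 RPKM in hepatomas. All hepatomas were below all controls (log2 change -0.81, SE 0.21, adjusted p = 0.0122), and hepatoma library 3, which held the most hepatocyte RNA, was the highest of its group. Library 4, the next in hepatocyte RNA, was at 39.3 RPKM, near libraries 1 and 2, which held little. Sdhaf2, which attaches the flavin to Sdha, was at 22.8, 23.3 and 19.9 RPKM in controls and 86.9, 91.7, 67.5 and 76.9 RPKM in hepatomas (log2 change 1.82, SE 0.18, adjusted p = 1.93e-05), and it remained positive but not past the threshold with median scaling (0.16). In each library Sdhaf2 was 26.8%, 27.3% and 36.4% of Sdha in controls but 222%, 226%, 140.5% and 196% in hepatomas. A factor common to all genes of a library cancels in this ratio, and the pair was chosen after its values were seen. The ratio had to lie apart between groups, since both genes already did so in opposite directions.

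In complex III 3 of 6 subunits rose and 1 fell. Uqcr11, a small subunit, was at 204, 233 and 181 RPKM in controls and 583, 678, 402 and 549 RPKM in hepatomas (log2 change 1.40, SE 0.23, adjusted p = 0.000733), turning to -0.26 with median scaling. Uqcrh, the acidic hinge protein, and Uqcrfs1, the Rieske iron-sulphur protein, rose by 0.83 and 0.71. Uqcrq, another small subunit, fell from 197, 210.4 and 129 to 72.9, 111, 119 and 102 RPKM (log2 change -0.81, SE 0.25, adjusted p = 0.0316). The call was lost when any of 5 of the 7 libraries was left out (adjusted p of at most 0.14). Within a library Uqcrq was 209%, 242% and 181% of the core subunit Uqcrc1 in controls and 67.3%, 87.2%, 107% and 102% in hepatomas, a pair chosen after the values were seen. Here too the ratio had to lie apart, since both genes already did so in opposite directions. The core subunits Uqcrc1 and Uqcrc2 stood at 1.33 and 1.39 times control and did not pass (adjusted p = 0.166 and 0.0893).

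Complex IV carried the largest rises. Cox7a2l, a relative of the Cox7a subunits that joins complexes III and IV into supercomplexes, was at 56.0, 54.1 and 52.5 RPKM in controls and 425, 258, 181 and 236 RPKM in hepatomas. The controls lay within a few RPKM of each other, and hepatoma library 1 was far the highest. The log2 change was 2.25 (SE 0.28, adjusted p = 8.64e-05), which is 0.67 above the median of all tested genes, and it stayed called higher with quantile normalization but not with median scaling. Cox4i2 was at 0.337, 0.534 and 0.629 RPKM in controls and 3.54, 6.40, 8.19 and 5.38 RPKM in hepatomas, 11.8-fold higher in group means (log2 change 2.16, SE 0.23, adjusted p = 3.34e-05). It lost its call with both scalings, at 0.49 with median scaling and 0.60 with quantile normalization. Cox6a1, the liver isoform of a regulatory subunit, rose 1.88-fold. Cox5a did not pass, at 1.45 times control, and Cox7b stood at 70.2% of control with overlapping groups (adjusted p = 0.154).

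All 5 assembly factors of complex IV rose on the deposited scale and had the opposite sign with median scaling. The copper chaperone Cox17, which hands copper to the enzyme, was even within groups, at 59.4, 60.6 and 58.6 RPKM in controls and 108, 115, 121 and 122 RPKM in hepatomas (log2 change 0.95, SE 0.17, adjusted p = 0.000988). Cox15, a haem A synthase, Cox18, which inserts a core subunit in the membrane, and Cox19, another copper protein, rose between 2.12-fold and 2.36-fold. Cox11, which delivers copper to a core subunit, rose least, from 1.29 ± 0.199 to 2.17 ± 0.243 RPKM. Cox4nb, the gene outside the chain, rose 4.39-fold (log2 change 2.00).

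In the ATP synthase Atp5b and Atp5d were the subunits listed. Atp5b was at 717, 721 and 533 RPKM in controls and 1734, 1490.5, 1114 and 1382 RPKM in hepatomas, so that the lowest hepatoma exceeded the highest control. The log2 change was 1.12 (SE 0.24, adjusted p = 0.00392), -0.46 relative to the median of all tested genes. Atp5d, the delta subunit of the central stalk, rose 2.20-fold and Atp5sl 1.76-fold.

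Summed over the listed genes, both roles were higher in hepatomas, the 25 subunits at 3732 ± 678 and 5680 ± 656 RPKM and the 10 assembly factors at 123 ± 7.90 and 302 ± 19.8 RPKM. These sums hold the same selected values as the counts above and are given as a description. The assembly factors together were 3.07%, 3.11% and 3.87% of the 25 subunits in controls and 5.14%, 5.17%, 5.91% and 5.14% in hepatomas. In DEN mice the 9 assembly factors were 0.674%, 0.595% and 0.557% of the 49 subunits before and 0.653%, 0.654% and 0.731% with tumours, and these groups overlapped. The tables list different genes, so the percentages are not to be compared between species.

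**Figure D2:**
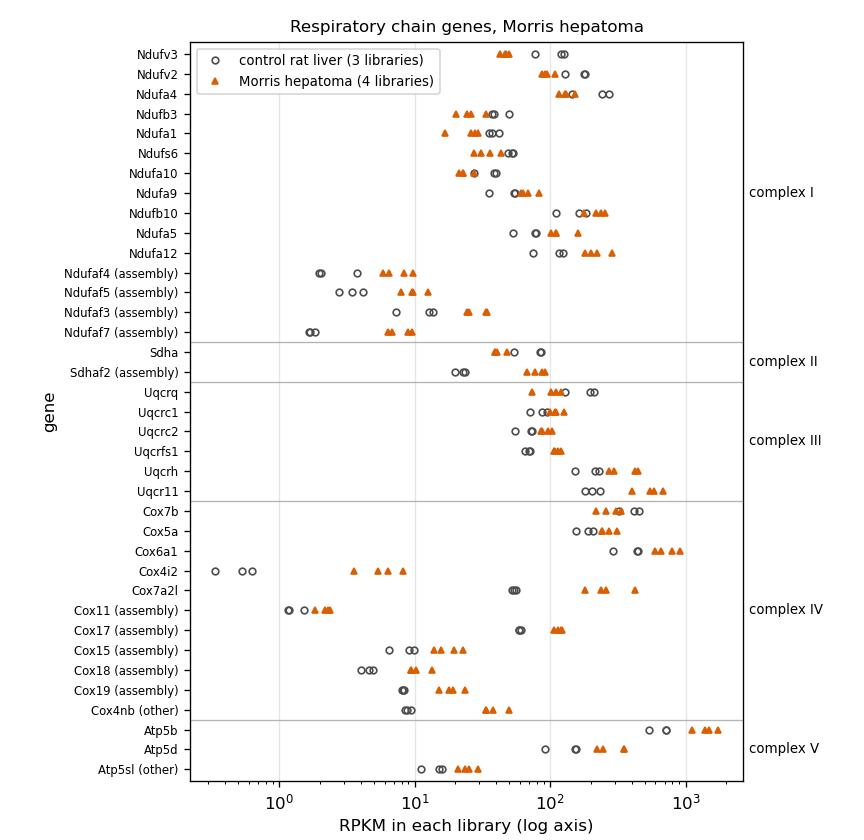
RPKM on a log axis for each of the 37 members in 3 control libraries (open circles) and 4 hepatoma libraries (triangles), ordered by complex and role. The 10 assembly factors lie to the right in hepatomas, while Ndufv3, Ndufv2, Ndufb3, Ndufs6, Sdha and Uqcrq lie to the left; with median scaling 0 members were called higher and 25 lower.

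The counts were repeated without the libraries that stood apart. Without control library 3, 19 members were called higher and 6 lower. Without hepatoma libraries 3 and 4, a choice made after seeing their hepatocyte markers, 19 were called higher and 1 lower. Sdha was then at -0.87 (limma adjusted p = 0.0556) and Ndufv2 at -0.81 (limma adjusted p = 0.0582) on the log2 scale, neither past the threshold. The part of hepatocyte RNA in these differences was not tested. Without control library 1, or without control library 2, 1 was called lower, and without hepatoma library 1, 2 or 4, 3 were. The 6 members that fell kept their sign and call with both median scaling and quantile normalization.

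The genes around the chain are read against the 85.5% of all tested genes called higher on the deposited scale, and most of the lists lay near or under that share. With median scaling 24.6% of all tested genes were higher and 29.0% lower, and with quantile normalization 30.5% and 22.8%. Of 15 tested TCA cycle genes 11 rose and 2 fell (2 and 8 with median scaling, 5 and 8 with quantile normalization). Cs rose from 20.0 ± 2.09 to 110.3 ± 20.6 RPKM and kept its call with both scalings. Of 13 biogenesis regulators 10 rose and 1 fell (3 and 6 with either scaling). Among those that rose was Nrf1, a factor that binds promoters of chain genes, at 2.25, 2.26 and 1.06 RPKM in controls and 21.9, 18.1, 13.4 and 14.5 RPKM in hepatomas (log2 change 2.66, SE 0.23, limma adjusted p = 8.59e-06). Tfam, which packs and transcribes mitochondrial DNA, rose 5.12-fold and the coactivator Pprc1 8.41-fold, and these 3 kept their calls with both scalings. All 14 import genes rose (1 rose and 5 fell with median scaling, 5 and 0 with quantile normalization). Tomm40, the channel of the outer membrane, was 9.21-fold higher. Of 12 other assembly factors 11 rose (0 rose and 7 fell with median scaling, 0 and 6 with quantile normalization). Of 12 vacuolar ATPase subunits 10 rose (1 rose and 4 fell with median scaling, 3 and 1 with quantile normalization). The electron carriers were divided, with 6 of 11 higher and 4 lower (0 and 7 with median scaling, 0 and 6 with quantile normalization). Etfdh, which passes electrons from fatty acid oxidation to ubiquinone, fell from 89.9, 92.3 and 85.0 to 12.0, 10.6, 45.1 and 28.0 RPKM, and the 2 hepatomas with most hepatocyte RNA were the highest. Adck3 fell to 5.88% of control, with control library 3 at 21.3 RPKM against 138 and 164 in the other controls.

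All 11 genes of supercomplexes, cristae and ATPase control rose (2 rose and 3 fell with median scaling, 3 and 1 with quantile normalization), and Atpif1 led them. It was at 15.8, 14.4 and 13.5 RPKM in controls and 108, 94.3, 76.0 and 123 RPKM in hepatomas (log2 change 2.68, SE 0.20, adjusted p = 3.75e-06), and it stayed called higher with median scaling (1.02) and quantile normalization (1.47). The inhibitor rose more than its enzyme, from 2.21%, 1.99% and 2.53% of Atp5b to 6.24%, 6.33%, 6.82% and 8.88%. Chchd6, a protein of the cristae junctions, rose 6.76-fold.

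**Figure D3:**
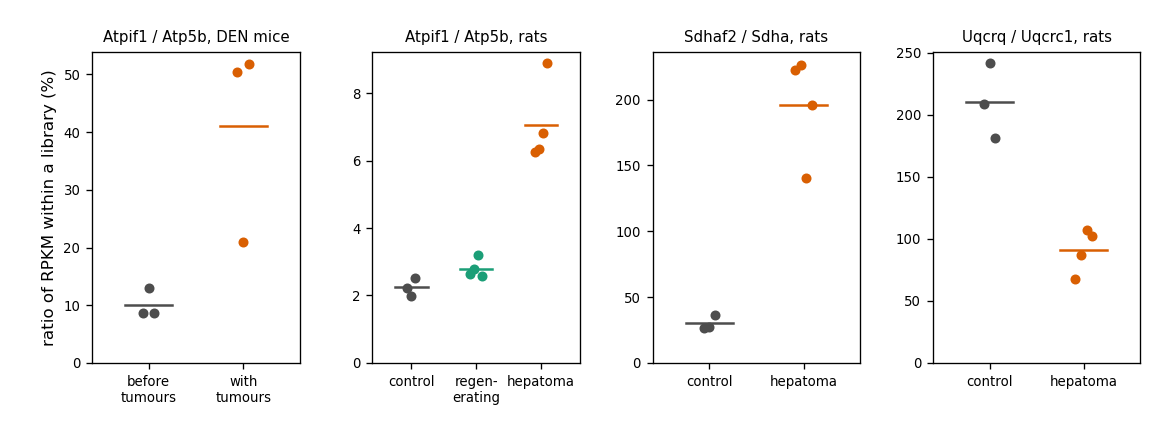
Ratio of the RPKM of 2 genes within each library, in percent, for Atpif1 to Atp5b in DEN mice and in rats, and for Sdhaf2 to Sdha and Uqcrq to Uqcrc1 in rats; points are libraries and bars group means. No plotted ratio overlaps between the tumour group and its control, and tumour library 2 of the mice (20.9%) lies closest to the group before tumours. Apart from Atpif1 to Atp5b in rats this had to be so, since the 2 genes of each pair already lay apart in opposite directions. The pairs Sdhaf2 to Sdha and Uqcrq to Uqcrc1 were chosen after the values were seen.

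Promoter sequence was looked at for what the rat members share. RefSeq (GRCr8) gave the 250 bases before the start of 33 of 38 rat members, leaving out Cox4nb and Atp5sl. The motif of NRF1, a factor also coded by a gene of the biogenesis list, was read as GCGCA, any base and GCGC on either strand, and it was in 9 of these 33 windows (27.3%), against 3.75% of all 33469 windows and 5.07% of those of protein-coding genes. The ETS motif CCGGAAG, on either strand, was in 8 windows (24.2%), against 7.27% of all and 9.01% of those of protein-coding genes. The YY1 motif AAGATGG was in 1 (3.03%), against 4.62% and 4.36%. The members' windows also held more CG pairs, with a median of 16 against 8 in protein-coding genes, and a median GC content of 57.6% against 54%, and the shares were not matched on these. The 3 genes listed in all tables are shown with the largest riser and the largest faller among the subunits with a window, the NRF1 match in capitals and the rest in lower case, each 5′ to 3′ on the strand of the gene. They are Atp5b at chr7:1099808-1100057 (+ strand), Uqcrc1 at chr8:118467973-118468222 (+ strand), Ndufaf7 at chr6:21871966-21872215 (- strand), Ndufv3 at chr20:9613536-9613785 (+ strand) and Cox7a2l at chr6:16936324-16936573 (+ strand).
Atp5b: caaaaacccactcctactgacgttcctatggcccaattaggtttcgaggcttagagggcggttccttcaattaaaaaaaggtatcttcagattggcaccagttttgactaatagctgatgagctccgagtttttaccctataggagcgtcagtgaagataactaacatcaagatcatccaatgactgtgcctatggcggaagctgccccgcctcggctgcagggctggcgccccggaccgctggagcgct
Uqcrc1: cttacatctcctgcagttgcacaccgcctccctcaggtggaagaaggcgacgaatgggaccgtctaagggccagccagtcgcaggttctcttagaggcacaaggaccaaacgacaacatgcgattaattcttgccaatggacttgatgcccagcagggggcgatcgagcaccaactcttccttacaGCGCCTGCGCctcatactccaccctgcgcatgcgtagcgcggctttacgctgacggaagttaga
Ndufaf7: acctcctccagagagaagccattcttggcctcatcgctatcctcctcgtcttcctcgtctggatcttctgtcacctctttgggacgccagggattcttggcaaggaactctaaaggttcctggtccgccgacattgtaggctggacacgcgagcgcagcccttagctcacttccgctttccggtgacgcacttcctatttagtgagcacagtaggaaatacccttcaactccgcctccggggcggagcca
Ndufv3: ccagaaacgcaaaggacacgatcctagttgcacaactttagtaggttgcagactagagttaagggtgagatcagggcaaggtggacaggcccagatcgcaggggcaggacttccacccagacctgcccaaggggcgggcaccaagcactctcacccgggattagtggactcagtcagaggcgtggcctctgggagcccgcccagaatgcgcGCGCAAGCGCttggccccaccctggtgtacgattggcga
Cox7a2l: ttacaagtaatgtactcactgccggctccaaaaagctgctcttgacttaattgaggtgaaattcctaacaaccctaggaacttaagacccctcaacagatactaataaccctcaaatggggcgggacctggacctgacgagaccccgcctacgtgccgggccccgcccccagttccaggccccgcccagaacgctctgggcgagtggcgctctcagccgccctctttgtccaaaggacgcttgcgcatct
An NRF1 match began 64 bases before the start in Uqcrc1, which did not pass in the hepatoma, and 39 bases before it in Ndufv3, which fell. No match to the 3 motifs was in the windows of Atp5b, Ndufaf7 and Cox7a2l, which rose, and this says only that these letters are not there. Over all members with a window, the NRF1 letters were in 6 of 16 that rose in the hepatoma, 2 of 5 that fell, 1 of 9 that did not pass and 0 of 3 not listed in that table, counts too small to set against each other.

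In regenerating liver 7 members were listed, and 0 of the 7 passed by limma, while 21.2% of all tested genes were called higher and 0.763% lower. All 7 had an unadjusted p under 0.05, as the selection makes likely, and adjusted p lay between 0.0906 and 0.613. With the adjustment over the tested genes alone, which leaves the selection out of account, all 7 were called higher, and without trend and robust settings 0 were. The median log2 difference, 0.53, equalled that of all tested genes to 2 decimals, and the groups did not overlap in any of the 7, against 92.8% of listed genes. The 7 were 5.34% of the annotated genes of these symbols, against 9.02% of protein-coding genes (8.48% higher and 0.544% lower), and all 7 were higher by group means, as were 93.9% of listed genes, with 6.12% lower.

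The regenerating libraries lay close together in Atp5a1, Ndufs8 and Uqcrc1 and further apart in Ndufaf7. Atp5a1, the alpha subunit of the ATP synthase, was at 259, 271 and 216 RPKM in controls and 319, 326, 346 and 326 RPKM in regenerating liver (log2 difference 0.41, SE 0.13, adjusted p = 0.19). Atp5b was at 772, 878, 886 and 782 RPKM, 1.26 times control. Ndufs8, an iron-sulphur subunit of complex I, was at 109, 107 and 60.3 RPKM in controls and 130.3, 128, 129.5 and 127 RPKM in regenerating liver, so that control library 3 alone made most of the spread. Uqcrc1 was at 107, 109, 105 and 112 RPKM, 1.28 times control. Cox6b2 was low, from 1.04, 0.599 and 0.539 to 1.71, 1.29, 1.61 and 1.29 RPKM. Ndufaf7 went from 1.72 ± 0.0936 to 3.13 ± 0.868 RPKM, with regenerating libraries between 2.26 and 4.24, and Cox4nb from 8.84 ± 0.450 to 13.3 ± 2.00. With median scaling all 7 differences had the opposite sign, the largest in size being -0.28 for Atp5b.

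Around these members some matrix enzymes did rise. Of all tested genes 21.2% were called higher and 0.763% lower, and the list counts stand beside these shares. Of 9 tested TCA cycle genes 3 rose and 0 fell, and 1 rose with either scaling. Idh2, the mitochondrial isocitrate dehydrogenase that makes NADPH, was at 19.7, 24.7 and 23.8 RPKM in controls and 71.9, 64.8, 67.3 and 67.2 RPKM in regenerating liver (log2 change 1.54, SE 0.12, adjusted p = 0.00147), and it stayed called higher with both scalings. Dlst and Cs rose 1.84-fold and 1.65-fold. Acad9, an assembly factor of complex I, rose 1.88-fold as 1 of 6 such genes outside the symbol rule (16.7%). Coq6, an enzyme of ubiquinone synthesis, rose 1.62-fold as 1 of 4 electron carrier genes (25%). Both shares lay near that of all tested genes, and neither gene passed with either scaling. In the import, biogenesis and cristae lists 0 of 2, 0 of 1 and 0 of 3 tested genes passed. Atpif1 was 2.63%, 2.78%, 3.21% and 2.57% of Atp5b, above the 3 controls.

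A total of 4 members were listed in both rat tables, which hold the same values for the 3 controls, so hepatoma and regenerating liver could be set against each other. Of the 4, 3 were higher in the hepatoma, where 80.8% of all tested genes were called higher and 4.0% lower. Atp5b was 1.72 times higher in hepatoma (log2 difference 0.77, SE 0.17, limma adjusted p = 0.00874), and every hepatoma exceeded every regenerating liver, but the call was lost without regenerating library 1 (adjusted p = 0.051). Ndufaf7 was 2.52 times and Cox4nb 2.91 times higher (adjusted p = 0.00059 and 1.45e-05). Uqcrc1 was at 108 ± 3.04 RPKM in regenerating liver and 112 ± 11.2 in hepatoma, with overlapping groups and a log2 difference of 0.04 (SE 0.14). The groups did not overlap in 3 of the 4, against 89.3% of genes in both tables. With median scaling 0 were higher and 2 lower (26.6% and 28.8% of all tested genes), and with quantile normalization 0 and 1 (29.6% and 25.9%). The order for Atp5b, Ndufaf7 and Cox4nb was control, regenerating liver, hepatoma, in which the first pair of neighbours did not differ past the threshold.

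**Figure D4:**
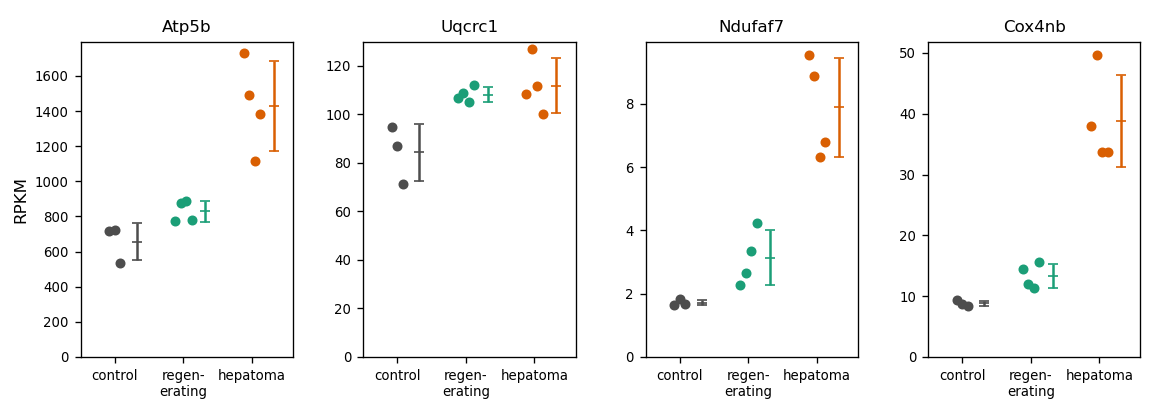
RPKM of the 4 members listed in both rat tables in each control (3), regenerating (4) and hepatoma (4) library; points are libraries, and the bar beside them is the mean ± SD. On the deposited scale, hepatoma libraries lie above all others for Atp5b, Ndufaf7 and Cox4nb and among the regenerating ones for Uqcrc1. With median scaling all 4 log2 differences from regenerating liver were negative, though only -0.074 for Cox4nb. Against control, Ndufaf7 and Cox4nb then stayed positive, at 0.029 and 0.34, and were not past the threshold.

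The 2 tumour models shared 23 listed members, and the models share no samples and are of different species. Of these, 16 were lower in DEN livers with tumours and higher in the Morris hepatoma by group means, 6 were lower in both and 1 was higher in both. The 16 were 7 assembly factors, 8 subunits and Atp5sl, and all 7 shared assembly factors were among them. The 6 lower in both were all subunits, namely Cox7b, Ndufa10, Ndufa4, Ndufv2, Ndufv3 and Uqcrq. Among them Ndufv2, Ndufv3 and Uqcrq were called lower in each model, Uqcrq and Ndufv2 with the Morris losses given above. Ndufv3 lost its DEN call when any of 5 of the 6 libraries was left out. Ndufv2, Ndufv3 and Uqcrq each lost the DEN call with both scalings, and Ndufv3 turned to 0.097 on the log2 scale with quantile normalization. Cox4i2 was the member higher in both, under the filter in DEN and not called with either scaling in Morris. The table backgrounds run the same way, since 71.4% of listed genes were lower and 28.6% higher in DEN, and 87.8% were higher and 12.2% lower in Morris, and the difference between models was not tested.

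**Figure D5:**
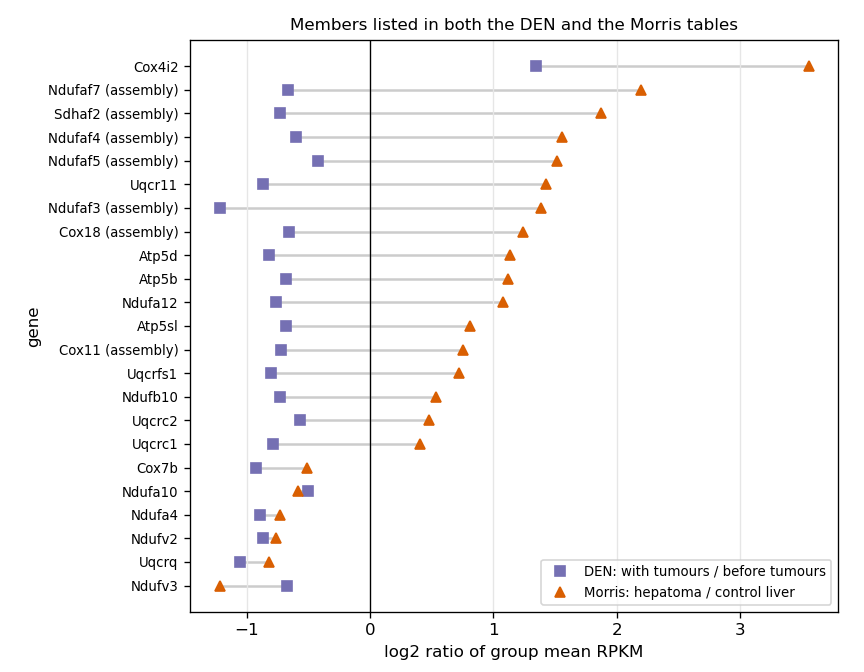
Log2 ratio of the group mean RPKM for the 23 members listed in both tables, with tumours against before tumours in DEN mice (squares) and hepatoma against control in rats (triangles). Squares lie left of 0 in all but Cox4i2, and triangles lie right of 0 except in 6 subunits; the deposited scaling is used, and median scaling turns most of the rat differences to lower.

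Atp5b, Uqcrc1 and Ndufaf7 were the 3 members listed in all tables. Atp5b stood at 62.5% of its control group in DEN, 218% in the hepatoma and 126% in regenerating liver. Uqcrc1 stood at 58.0%, 133% and 128%, and Ndufaf7 at 63.2%, 458% and 182%. The rat percentages share their controls.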

How the data were processed

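RNA from 17 liver and tumour samples had been sequenced. The aligner, the counting and the genome build are not given in the sources used here. As deposited by the authors, 3 tables hold a value per library, read here as RPKM from their steps at low values, since the headers name no unit. Per the file headers the tables also hold the log2 ratio of group means and a p-value, and every listed gene had a deposited p-value under 0.05. Per the file headers a Holm adjustment was used, but in all 3 tables each deposited p-value equals, within 1%, that of an unadjusted Student comparison with equal variances on the RPKM itself. The RPKM value 0.001 in the deposited tables stands for no reads. A line of the Morris table that names no gene was left out, and 0 columns of per-sample values were left unused.

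The test was limma 3.58.1 in R 4.3.3 on log2(RPKM + 1) (trend and robust settings, two-sided), for genes that reached 1 RPKM in a number of libraries equal to the size of the smaller group. P-values were adjusted by Benjamini-Hochberg over all annotated protein-coding genes (21951 in mouse, GENCODE M21; 23154 in rat, RefSeq GRCr8), with a threshold of 0.05, in 4 comparisons. Fold changes on this scale understate those of low genes. The fit was tested on simulated data, where more of the DEN calls were false than the threshold allows, and adjusted p-values can therefore be too small. Absolute depth was not known, so no counting intervals are given. Python 3.11.15 with numpy 2.4.6, pandas 2.3.3 and matplotlib 3.10.9 did the rest.

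The members and lists were chosen with earlier results of these data known. Named are, per complex, up to 3 members with the largest called change and up to 2 with the smallest or uncalled change, members against the sign of their complex, those in all tables, paired isoforms, and up to 3 genes with the largest called change per list; further members are named for their role. Alternatives were other pseudocounts, filters, scalings, adjustments and fits, and leaving out each library. A member of the mouse list is counted but not reported here by name.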

Additional observations from a re-analysis of the deposited data

Results flagged for a closer look

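Among 44 groups of 4 libraries, 2 held a library whose gap to the others was above Dixon's critical value for 4 samples, and chance gives about 1 such group in 20. Ndufa5 in hepatoma library 2, at 159.8 RPKM against 102 to 110.3 in the other hepatomas, had a gap of 0.861 of the range. Sdha in hepatoma library 3, at 48.1 RPKM against 39.1 to 40.5, had a gap of 0.84. Library 3 also held the most hepatocyte marker RNA of the hepatomas, 28093 RPKM, but library 4, with 22707 RPKM, had Sdha at 39.3 RPKM. The part of hepatocyte RNA in the Sdha value was not tested.

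In 15 members every library with tumours was lower than every library before them in DEN mice, while every Morris hepatoma was higher than every control. By the selection, the groups did not overlap in 4648 of 4649 listed DEN genes and in 98.3% of listed Morris genes. Of all listed genes 71.4% were lower in DEN and 87.8% higher in Morris, so these members moved as most listed genes did. With median scaling all of these members but Ndufaf7 and Sdhaf2 had the opposite sign in Morris. The difference between the models was not tested. The Morris log2 ratios of group means were 2.20 for Ndufaf7, 1.88 for Sdhaf2, 1.56 for Ndufaf4, 1.52 for Ndufaf5 and 1.38 for Ndufaf3. They were 1.42 for Uqcr11, 1.24 for Cox18, 1.14 for Atp5d, 1.12 for Atp5b and 1.08 for Ndufa12. They were 0.81 for Atp5sl, 0.75 for Cox11, 0.72 for Uqcrfs1, 0.48 for Uqcrc2 and 0.41 for Uqcrc1.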

How the results depend on the processing

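In DEN mice the 50 lower calls became 3 with median scaling (median log2 change -0.39), 1 with quantile normalization (-0.066), and 15 to 43 when single libraries were left out (median -0.86 to -0.74, with 0 higher), and without a filter 2 were higher. Of the 50, 13 kept their call whichever library was left out and 1 with both scalings. In the Morris hepatoma median scaling gave 0 higher and 25 lower (median -0.89), quantile normalization 4 and 15 (-0.41), and single libraries left out 19 to 22 and 1 to 7 (0.66 to 0.87). Without hepatoma libraries 3 and 4, chosen after seeing the data, 1 was lower. All 3 rat groups in 1 fit, possible only for the 4 genes in both rat tables, gave 3 higher and 0 lower (1.40), and without assembly factors 12 were higher (0.53). Of the 28 calls 19 held whichever library was left out and 6 with both scalings. In regenerating liver median scaling gave a median of -0.10, quantile normalization -0.049, adjustment over the tested genes alone 7 higher, and single libraries left out 0 calls with medians of 0.31 (without control library 3) to 0.56. For hepatoma against regenerating liver median scaling gave 0 higher and 2 lower (-0.60), quantile normalization 0 and 1 (-0.23), members without assembly factors a median of 0.77, and single libraries left out 2 to 3 higher (0.85 to 1.04). A replicate block was fitted, but same-numbered libraries correlated between -0.32 and 0.15 in their deviations, so the numbers do not pair them; it gave 33 lower in DEN and 20 higher and 2 lower in Morris. The cause of these differences was not tested.

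Over all tested members the sign turned in 1 of 57 with median scaling and 21 with quantile normalization in DEN, 22 and 13 of 37 in Morris, 7 and 5 of 7 in regenerating liver and 4 and 4 of 4 between hepatoma and regenerating liver. Among named members the turned log2 differences were 0.15 for Ndufaf5 in DEN with median scaling, and with quantile normalization 0.28 for Ndufa10, 0.097 for Ndufv3, 0.024 for Sdhaf1, 0.19 for Uqcr11, 0.21 for Uqcrc2, 0.12 for Uqcrb, 0.27 for Atp5c1, 0.26 for Atp5f1, 0.023 for Atp5b, 0.066 for Cox4i1 and 0.023 for Uqcrc1. In Morris they were, with median scaling, -0.32 for Ndufaf3, -0.38 for Ndufaf5, -1.13 for Ndufa9, -0.26 for Uqcr11, -0.83 for Uqcrh, -1.26 for Uqcrc1, -1.18 for Uqcrc2, -1.19 for Cox11, -0.53 for Atp5d, -0.55 for Atp5b, -0.89 for Atp5sl, -0.75 for Cox6a1, -0.39 for Ndufaf4, -0.58 for Ndufa12, -0.89 for Ndufa5, -0.95 for Uqcrfs1, -0.67 for Cox15, -0.71 for Cox17, -0.59 for Cox18 and -0.56 for Cox19. With quantile normalization they were -0.16 for Ndufaf3, -0.39 for Ndufaf5, -0.51 for Ndufa9, -0.41 for Uqcrc1, -0.43 for Uqcrc2, -1.06 for Cox11, -0.72 for Atp5sl, -0.41 for Ndufaf4, -0.084 for Ndufa5, -0.15 for Uqcrfs1, -0.60 for Cox15, -0.58 for Cox18 and -0.50 for Cox19. In regenerating liver they were, with median scaling, -0.10 for Ndufs8, -0.046 for Ndufaf7, -0.26 for Uqcrc1, -0.10 for Cox6b2, -0.094 for Cox4nb, -0.28 for Atp5b and -0.21 for Atp5a1. With quantile normalization they were -0.052 for Ndufaf7, -0.084 for Uqcrc1, -0.11 for Cox6b2, -0.049 for Cox4nb and -0.0002 for Atp5b. For hepatoma against regenerating liver they were, with median scaling, -0.43 for Ndufaf7, -1.50 for Uqcrc1, -0.074 for Cox4nb and -0.77 for Atp5b, with quantile normalization -0.37, -1.35, -0.048 and -0.079, and for Uqcrc1 between -0.020 (without hepatoma library 2) and 0.093 (without hepatoma library 4) when single libraries were left out.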
